A study of Mus musculus with 9 samples.

Results

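Tropomyosins are encoded in the mouse by the 4 genes Tpm1, Tpm2, Tpm3 and Tpm4, and CHD7 CUT&RUN peaks were found in the regulatory domains of 2 of them, Tpm1 and Tpm3, while 22.7% of all protein-coding genes had a peak in theirs. The peaks described here are those of the deposited list whose midpoint fell in the regulatory domain of a tropomyosin gene, 8 of 3761 peaks in all. The domain of a gene consisted of a basal stretch, 5 kb upstream and 1 kb downstream of its TSS, and of an extension to each side that ended at the basal stretch of the neighbouring gene or after 1 Mb. The genes were chosen by the number of peaks at Tpm1, one of the highest in the list, so that this number is a description and was not tested.

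The cells were wild-type cardiac progenitor (CP) cells, taken on day 5 while C57BL6 mouse ESCs were differentiating into cardiomyocytes. CUT&RUN, in which an antibody directs a nuclease to chromatin and the released DNA is sequenced, was performed with anti-CHD7 and with anti IgG as negative control. Input libraries form a further group, and each of these 3 groups has 3 replicates. The deposited list holds the positions of the CHD7 peaks of the 3 anti-CHD7 replicates together, each found in at least 2 of them, and gives no read count, height or P-value. Values per replicate, their spread and the library depths are thus unknown here, the list holds no expression values against which the cell type could be checked, and all comparisons below are counts with no test.

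Tropomyosins are coiled-coil proteins that lie along the actin filament. In striated muscle they hold the troponin complex on the thin filament and, in response to calcium, set the access of myosin to actin, and in other cells they stabilize the filaments of the cytoskeleton. TPM1 is the main tropomyosin of the heart, TPM2 is known from skeletal and smooth muscle, TPM3 from slow skeletal muscle and non-muscle cells, and TPM4 mainly from non-muscle cells. Tpm1 and Tpm3 each have an outer promoter for the long isoforms, which include the muscle forms, and an inner promoter for short cytoskeletal isoforms. CHD7, the chromatin remodeller that is mutated in CHARGE syndrome, moves nucleosomes with the energy of ATP.

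The widest tropomyosin peak lay over the inner promoter of Tpm1, and the outer promoter held no peak. Tpm1 (ENSMUSG00000032366.15) lies on the minus strand of chromosome 9 of GRCm38 (mm10), from 67022590 to 67049406, and its main TSS, that of a transcript with 9 exons, is at 67049406. Peak1953, at chr9:67043168-67045742, is 2575 bp wide. It contained the starts of 7 Tpm1 transcripts, 6 of them annotated as protein-coding, and reached from 1780 bp upstream of the outermost of these starts to 541 bp downstream of the innermost. The first exon at these inner starts, 385 bp from 67043578 to 67043962 in the outermost of them, was wholly covered. By contrast, the 10 protein-coding transcripts that begin within 263 bp of the main TSS had no peak over their starts, and the nearest peak edge was 1981 bp away.

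The sequences at these starts are given 5′ to 3′ on the strand of the gene, from the RefSeq copy of GRCm38.p6, because they are where a peak was and was not found. Capitals mark matches to any of the 12 motifs searched, which are spelled out further on. The first line is the 250 bp upstream of the outermost inner start, chr9:67043963-67044212, inside peak1953, and the second is the 250 bp upstream of the main TSS, chr9:67049407-67049656, under no peak.
Tpm1 inner start: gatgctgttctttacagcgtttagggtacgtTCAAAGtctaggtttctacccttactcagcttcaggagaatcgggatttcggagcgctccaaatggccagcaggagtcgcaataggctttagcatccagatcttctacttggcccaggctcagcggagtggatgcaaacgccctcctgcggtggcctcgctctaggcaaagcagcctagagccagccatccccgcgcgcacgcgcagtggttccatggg
Tpm1 outer start: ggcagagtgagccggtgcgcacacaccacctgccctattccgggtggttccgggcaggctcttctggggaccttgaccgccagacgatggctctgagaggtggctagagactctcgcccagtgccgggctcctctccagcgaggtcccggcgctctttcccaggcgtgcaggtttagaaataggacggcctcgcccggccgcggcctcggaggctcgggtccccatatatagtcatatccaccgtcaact
Both stretches are rich in CG dinucleotides. The inner one holds 15 with a GC content of 56.8%, and the outer one 20 with a GC content of 64.8%. The 1 match in the inner stretch is to the TCF/LEF core CTTTGA, which 13.8% of the 250 bp stretches upstream of 32851 RefSeq starts hold as well. The outer stretch holds no match to the 12 motifs. Neither stretch holds the SP/KLF core GGGCGG, which 32.7% of the 32851 stretches hold.

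**Figure D1:**
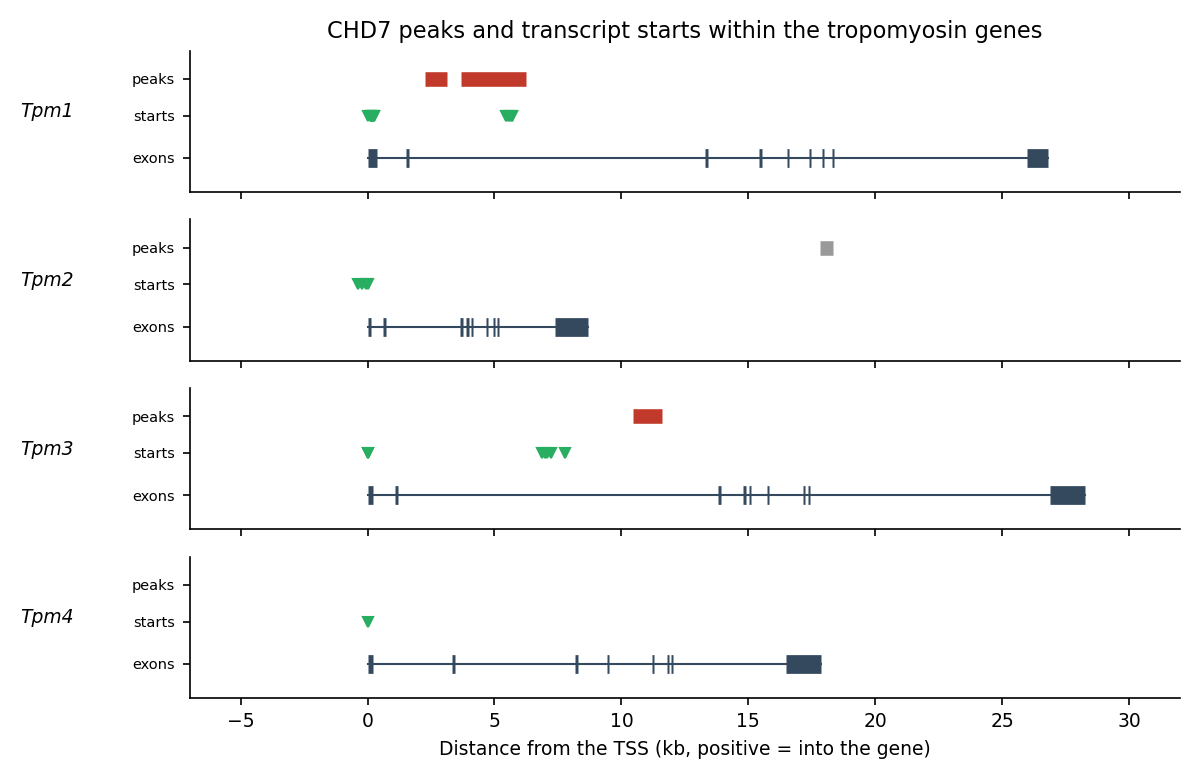
Exons of the main transcript (blue), starts of protein-coding transcripts (green triangles) and CHD7 peaks (bars) of the 4 tropomyosin genes, against the distance from the TSS in kb. Red peaks lie in the domain of the gene and the grey peak near Tpm2 lies outside it. In Tpm1 the 2575 bp peak covers the inner starts, in Tpm3 the peak lies past the inner starts, and Tpm2 and Tpm4 have no peak in the gene.

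A second peak of Tpm1, peak1954 at chr9:67046289-67047162, is 874 bp wide and lies between the outer and inner promoters. Its midpoint was 2680 bp downstream of the main TSS, and that of peak1953 4951 bp downstream. Both midpoints are in intron 2 of the main transcript, which is 11657 bp long, from 67036129 to 67047785, and 29.6% of this intron lay under the 2 peaks. Their midpoints were 2271 bp apart, and 0.374% of the distances between neighbouring peaks of the list were shorter, against a median of 276113 bp. This is a description, as a gene chosen for many peaks is apt to have close ones. Both peaks also fell in the domain of Lactb, a gene for a mitochondrial protein, whose TSS is 68971 bp from the nearer of the 2 midpoints.

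Genes with this arrangement were few. Of 5615 genes with a protein-coding transcript that starts over 2000 bp inside the main TSS, 44 (0.784%) had a peak over such an inner start and none within 1000 bp of the main TSS, and Tpm1 was 1 of the 44. This definition was made after the Tpm1 peaks had been seen. With only the transcripts of the GENCODE basic set the number was 28, Tpm1 included. A peak within 1000 bp of the main TSS was uncommon as well, in 152 of the 5615 genes. The small share therefore does not by itself set this arrangement apart.

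The other 5 Tpm1 peaks lay upstream, towards and inside Tln2, which encodes talin 2, a protein that links integrins to actin. Peak1955 (chr9:67077436-67078291, 856 bp) was at -28458 bp from the main TSS, a negative distance being upstream, and is intergenic. Peak1956 (chr9:67105550-67106929, 1380 bp) was at -56834 bp with its midpoint in intron 2 of the lincRNA Gm10646. Peak1957 (chr9:67163257-67164420, 1164 bp) was at -114433 bp with its midpoint in intron 2 of the lincRNA Gm19299. These 3 peaks thus stood between the Tpm1 gene and the 3′ end of Tln2, and the last 2 of them each overlapped an exon of a lincRNA, as did 2.34% of all peaks. The remaining pair lay within Tln2. Peak1958 (chr9:67398319-67398931, 613 bp) was at -349219 bp in intron 2 of Tln2, and peak1959 (chr9:67481626-67482843, 1218 bp) at -432829 bp in intron 1. No TSS of a protein-coding gene was closer to peak1955 and peak1956 than that of Tpm1. For peak1957, peak1958 and peak1959 a start of some transcript of a protein-coding gene was closer, at 67568, 30178 and 53432 bp. Transcripts of any type counted here. Against main TSSs alone, 1 per gene, Tpm1 was the nearest gene to peak1957 as well.

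**Figure D2:**
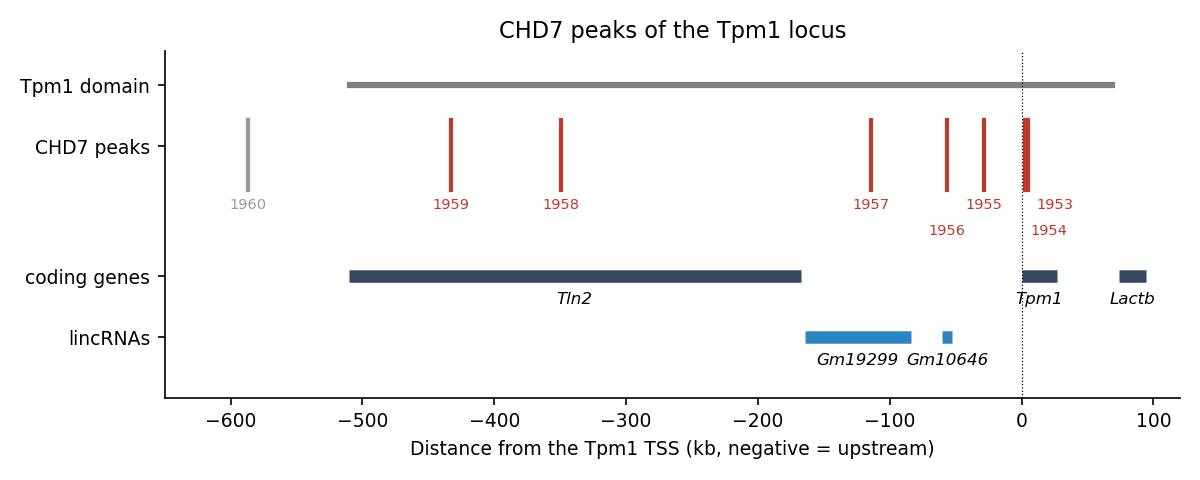
CHD7 peaks (upright lines, labelled with their number in the list) against the distance from the main TSS of Tpm1 in kb, with the regulatory domain (grey bar), protein-coding genes (dark blue) and lincRNAs (light blue). The 7 red peaks lie in the Tpm1 domain, 2 of them inside the gene and 5 upstream, and the grey peak1960 lies outside it.

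All 5 upstream peaks fell in the domain of Tln2 as well, and Tln2 had 6 peaks in all. The TSSs of Tpm1 and Tln2 are 510297 bp apart, and the shared stretch between them cannot be given to one gene by position alone. The outermost Tpm1 peak, peak1959, lay 76467 bp inside the border of the domain, and the next peak, peak1960, lay 77850 bp outside it, at -587146 bp from the TSS. On the downstream side the next peak was 315809 bp from the TSS. Between neighbouring Tpm1 peaks the distances ran from 2271 to 234786 bp. The median over the whole list was 276113 bp, but Tpm1 was chosen for its many peaks, and short distances largely follow from that choice.

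Tpm1 was 1 of 5 genes with 7 peaks, the highest number of any gene. These make up 0.0228% of 21911 protein-coding genes, while 22.7% had at least 1 peak (Wilson 95% confidence interval 22.2 to 23.3, counting error only), and 6 genes had 6 peaks. The other genes with 7 peaks were Bmp4, which encodes a growth factor of the mesoderm, and its neighbour Cdkn3, and the neighbours Uaca and Tle3, the latter a corepressor gene. Bmp4 and Cdkn3 shared all 7 peaks, and Uaca and Tle3 shared 6 of theirs, so that the 5 genes stand for 3 loci. The Tpm1 domain is long, 578218 bp, and 90.4% of genes had a shorter one. Among the 752 genes with a domain of 500 to 700 kb, 2 (0.266%) had 7 or more peaks and the median was 0.

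**Figure D3:**
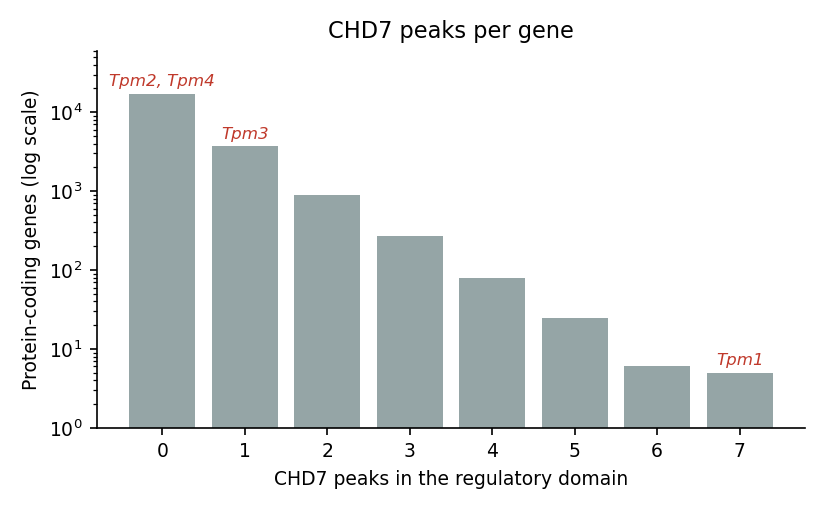
Number of protein-coding genes (log scale) by the number of CHD7 peaks in their regulatory domain. Tpm1 is in the class of 7 peaks with 4 other genes, Tpm3 in the class of 1, and Tpm2 and Tpm4 in the class of 0.

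The 7 peaks of Tpm1 were wider than those of the other loci with as many. They covered 8680 bp together, and no gene had more bp under peaks, while Bmp4 and Cdkn3 each had 6507 bp, Uaca 6519 bp and Tle3 5463 bp. That no gene had more follows in part from the choice of Tpm1 for its many peaks. The median width was 1164 bp at Tpm1, 602 bp for the 7 peaks of Bmp4 and Cdkn3, and 587 bp for the 8 peaks of Uaca or Tle3. None of the peaks at those 4 genes overlapped a start of a protein-coding gene. Per 100 kb of domain the order was different, with 1.21 peaks for Tpm1, 1.87 for Bmp4, 1.79 for Cdkn3, 1.07 for Uaca and 0.626 for Tle3. By this measure 1344 genes lay above Tpm1. The number of peaks also depends on how close peaks were joined. With peaks under 1 kb apart merged, peak1953 and peak1954 became 1, Tpm1 had 6 peaks, and 4 genes had more.

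Tpm3 had a single peak, within the gene. Tpm3 (ENSMUSG00000027940.18) is on the plus strand of chromosome 3, from 90072649 to 90100902, with its main TSS at 90072651. Peak644, at chr3:90083120-90084257, is 1138 bp wide, and its midpoint was 11038 bp downstream of the main TSS, in intron 2 of the main transcript, an intron of 12600 bp. Tpm3, like Tpm1, has inner starts in this intron, 5 protein-coding ones from 90079540 to 90080442, but the peak did not cover them. Its midpoint was 4149 bp downstream of the outermost and its edge 2678 bp from the nearest. The outer starts were 10469 bp from the peak edge. The same peak fell in the domain of Nup210l, which had 3 peaks, and the next peak lay 46317 bp from the Tpm3 TSS and 19837 bp outside its domain. Because the Tpm3 domain is short, 41659 bp, its 1 peak corresponds to 2.40 peaks per 100 kb, and 539 genes lay above this value. Over all domains together it was 0.148.

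Tpm2 and Tpm4 had no peak in their domains. Tpm2 (ENSMUSG00000028464.16) is on the minus strand of chromosome 4, from 43514711 to 43523765, with a domain of 49365 bp. Its nearest peak, peak777 at chr4:43505036-43505558, is 523 bp wide. It lay 18091 bp downstream of the TSS of Tpm2, beyond the 3′ end of the gene by 9414 bp and outside the domain by 2670 bp. By the rule it belonged to Car9 alone, a carbonic anhydrase gene, 1669 bp upstream of its TSS. Tpm4 (ENSMUSG00000031799.9) is on the plus strand of chromosome 8, from 72134975 to 72153142, with a domain of 48159 bp. The nearest peak, peak1705, was 226953 bp upstream of its TSS, and 58.7% of all genes had a peak closer to their TSS, against 2.92% for Tpm1, 6.86% for Tpm3 and 9.85% for Tpm2. Of the 2715 genes with a domain of 40 to 60 kb, 12.9% had a peak, so that a gene with a domain of this length and no peak was the usual case. Binding below the calling threshold could not be examined.

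Tpm2, like Tpm1, has a talin gene as its neighbour. Tln1, which encodes talin 1, is on the same strand with its TSS 39034 bp from that of Tpm2. Neither Tln1 nor Tpm2 had a peak, and the closest one to the Tln1 TSS was 57125 bp away. At the Tpm1 and Tln2 pair the domains together held 8 peaks, 5 of them shared. The lengths searched were unlike, with domains of 12293 bp for Tln1 and 49365 bp for Tpm2. Those of Tln2 and Tpm1 were 700030 and 578218 bp long, so that the 2 pairs cannot be compared by number of peaks.

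Among themselves the 8 tropomyosin peaks differed in width more than in base composition. Their widths ran from 613 to 2575 bp with a median of 1151 bp, against 703 bp over all peaks (quartiles 530 and 1053 bp). Of the 8, 7 were wider than the median of the list, the exception being peak1958, and 5 were wider than 1000 bp, as were 28.2% of all peaks. Peak1953 was the 29th widest of 3761, and of the 29 peaks of its width or more 8 overlapped a start of a protein-coding gene. Such an overlap was seen for 1 of the 8 tropomyosin peaks (peak1953) and for 12.3% of all peaks, so that the share did not stand apart. The midpoint was in an intron of a protein-coding gene for 5 of 8, against 43.8% of all peaks.

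The GC content of the tropomyosin peaks ran from 44.4 to 51.2% with a median of 47.1%, close to the 47.5% of all peaks. Peaks over a start had a median of 55.7%, and peak1953, with 51.2%, was below that median. It held 91 CG dinucleotides, and its ratio of observed to expected CG was 0.539, which is higher than that of 90.7% of all peaks. For this ratio, peaks over a start were not compared separately. The other tropomyosin peaks had ratios from 0.0841 (peak1959) to 0.336 (peak1958). Sequence masked as repeats made up 2.87% of peak1959 and 41.2% of peak1957, with a median of 9.77% over the 8 and 13.2% over all peaks.

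**Figure D4:**
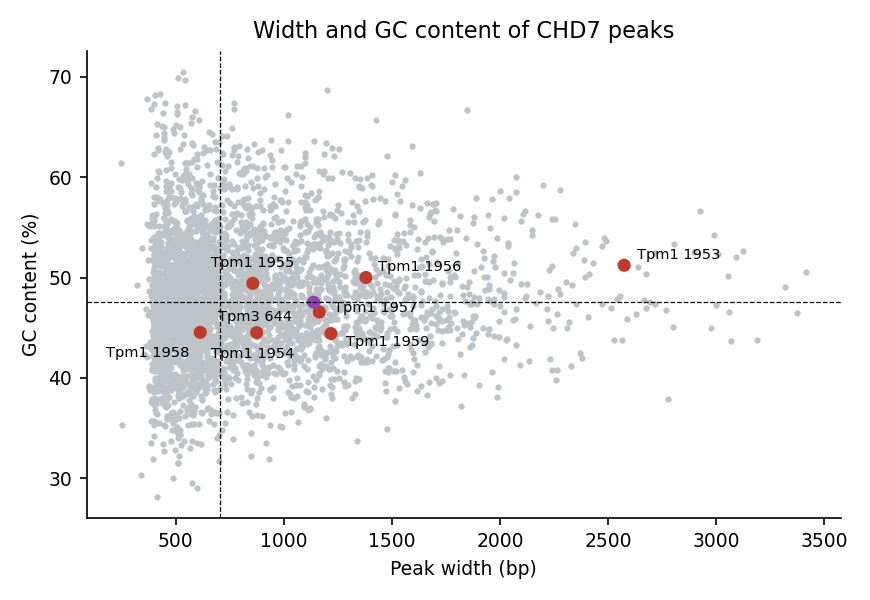
GC content (%) against width (bp) of all 3761 CHD7 peaks (grey), with the 7 peaks of Tpm1 (red) and the peak of Tpm3 (purple) labelled by their number in the list. Dashed lines are the medians of all peaks. All labelled peaks but peak1958 lie to the right of the median width, and peak1953 stands apart at 2575 bp.

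The central 200 bp of each peak were searched for 12 consensus motifs on either strand. They were AGATAA for GATA factors, CAGCTG for the muscle E-box, GGAATG for TEAD, AGGTGT for T-box factors, TNAAGTG for NKX2 factors, TAATGG for the ISL1 core, TAATTA for homeodomains, GGGCGG for SP/KLF, CTTTGA for TCF/LEF, and the consensus sequences of MEF2, of the SRF CArG box and of CTCF. The ISL1 core and the homeodomain motif share the letters TAAT, and matches to different motifs may overlap. A match is a description of the letters and not evidence of binding. GATA factors, MEF2 and SRF are regulators of cardiac and muscle genes, TEAD factors bind the MCAT elements of muscle promoters, and NKX2-5, ISL1 and T-box factors act in CP cells.

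The GATA motif was in the windows of peak1953, peak1954 and peak1955, 3 of 8, against 11.8% of all peaks. In peak1954 it matched 3 times within 200 bp, which 5 of 3761 peaks (0.133%) did, a count looked at after the matches had been seen. The TEAD motif was in 2 windows (11.8% of all peaks) and so was TCF/LEF (15.3%), while the E-box (11.6%), the ISL1 core (7.39%) and the homeodomain motif (4.52%) were each in 1. The MEF2 (1.89% of all peaks), CArG (0.904%), T-box (11.3%), NKX2 (11.4%), SP/KLF (8.69%) and CTCF (0.665%) motifs were in none of the 8 windows. With 8 peaks, a count of 1 or 2 lies near these shares. The counts depended on the window, and in the central 300 bp GATA (653 of 3761 peaks), TEAD (17.1% of all peaks), NKX2 (16.9%) and the ISL1 core (10.8%) were each found in 3 of the 8.

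The windows of the 2 peaks inside Tpm1 and of the peak inside Tpm3 are printed because they lie within the genes themselves, on the strand of the gene, with matches in capitals. A GATA match reads TTATCT where it is on the other strand. Their positions are chr9:67044355-67044554, chr9:67046626-67046825 and chr3:90083589-90083788.
Tpm1 peak1953: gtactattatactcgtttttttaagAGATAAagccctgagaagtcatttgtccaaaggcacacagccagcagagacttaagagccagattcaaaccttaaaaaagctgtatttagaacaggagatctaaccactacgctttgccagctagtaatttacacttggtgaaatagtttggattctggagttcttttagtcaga
Tpm1 peak1954: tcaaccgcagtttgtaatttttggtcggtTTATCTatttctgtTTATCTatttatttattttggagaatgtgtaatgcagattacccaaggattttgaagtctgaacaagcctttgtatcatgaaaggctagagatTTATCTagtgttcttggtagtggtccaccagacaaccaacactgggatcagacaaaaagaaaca
Tpm3 peak644: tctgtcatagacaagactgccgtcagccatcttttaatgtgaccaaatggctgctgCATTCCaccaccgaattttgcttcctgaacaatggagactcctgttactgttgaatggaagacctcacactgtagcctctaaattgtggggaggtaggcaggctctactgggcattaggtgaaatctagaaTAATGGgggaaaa
Peak1953 holds 1 GATA match here, 69 bp from the midpoint. In peak1954 the 3 GATA matches begin 42 bp to one side of the midpoint and 51 and 65 bp to the other. The window of peak644 holds a TEAD match and a match to the ISL1 core, and no GATA match.

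Over whole peaks the GATA motif matched in 6 of 8, all but peak1956 and peak1958, against 36.8% of all peaks. There were 10 matches, or 1.02 per kb of tropomyosin peak against 0.641 per kb of all peaks. The neighbouring peak1953 and peak1954 held 3 each, and no other tropomyosin peak held more than 1. The homeodomain motif had 0.611 matches per kb against 0.261, with 3 of its 6 matches in peak1959. Of these, the matches that begin at 67482076 and 67482080 overlap. Other motifs were in 6 of 8 peaks as well, the E-box (37.9% of all peaks), TEAD (39.1%) and TCF/LEF (46.4%), and as the tropomyosin peaks are wider than most, they have more room for a match. Per kb, the E-box stood at 0.713 against 0.623, TEAD at 0.611 against 0.640, and TCF/LEF at 0.713 against 0.834. The T-box motif was in 5 of 8 peaks (38% of all peaks), the NKX2 motif (38.2%), the ISL1 core (26.6%) and the homeodomain motif (17.9%) each in 4, and SP/KLF (23.4%) in 2. No tropomyosin peak held a match to the MEF2 (9.55% of all peaks) or CTCF (1.68%) consensus.

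A single CArG box, the site that SRF is known for, was found in the 8 peaks, in peak1954, at -352 bp from its midpoint (towards lower coordinates), at chr9:67046374-67046383. Of all peaks, 3.91% held one, and 1.78% held one together with a GATA match, as peak1954 did. It is printed with 20 bp to either side, chr9:67046354-67046403, on the strand of Tpm1, with the CArG box in capitals.
Tpm1 peak1954 CArG box: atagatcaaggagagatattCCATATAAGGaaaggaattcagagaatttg
Peak1953 and peak1954 were also the tropomyosin peaks with a match to SP/KLF, 3 in the former and 2, which overlap, in the latter. The 3 of peak1953 lie between 67043798 and 67043935, within the first exon at the inner starts.

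Tropomyosin was further compared with genes for proteins that act with it on actin filaments. In a list of 20 other genes of the thin filament and its caps, 2 had a peak, and neither had one within 5 kb of the TSS. These were Lmod3, which encodes the actin nucleator leiomodin 3, with 3 peaks, and Neb, which encodes nebulin, with 1. The cardiac actin gene Actc1 and the troponin genes Tnnt2, Tnni3 and Tnnc1 had none, with the nearest peak 267678, 396278, 217299 and 46853 bp from their TSSs. In the thick filament list, 1 of 16 genes (6.25%) had a peak, Mybpc3, the gene of cardiac myosin binding protein C, with 2 peaks and the nearer 5739 bp from its TSS. Of 14 Z-disc genes and titin, 3 (21.4%) had a peak, namely Actn2, Ldb3 and Pdlim5, with 1 each.

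The share was higher in the list named for actin partners of non-muscle and smooth muscle cells. There, 11 of 23 genes (47.8%) had a peak against 22.7% of all genes. The lists were drawn up with earlier results of these data known, and they do not separate muscle from other cells. This one includes Fhod3 and Tln2, which also act in striated muscle. The thin filament list includes Lmod1 and Tmod3, which also act outside it. In this list Tln2 had 6 peaks, of which 5 are those shared with Tpm1, and Myh10, which encodes a non-muscle myosin heavy chain, had 5. The number at Tln2 thus comes mostly from the peaks for which Tpm1 was chosen. A peak lay within 5 kb of the TSS for 3 genes, at 3032 bp for smooth muscle actin (Acta2), 3315 bp for smooth muscle myosin (Myh11) and 3886 bp for calponin 2 (Cnn2). The share of all genes with a peak within 5 kb was not counted, so these counts, like that of the thin filament list, have no background. In the narrower basal stretch, 3.16% of all genes and 1 gene of the 4 lists had a peak. The median domain was 69569 bp for the thin filament list, 89621 bp for the thick filament list, 97218 bp for the Z-disc list and 92436 bp for the actin partners. Over all genes it was 90181 bp. Among the 73 genes of the 4 lists, no gene had as many peaks as Tpm1. That is no result about the lists, as Tpm1 was chosen for this number, which only 5 of 21911 genes reached. Over the 4 lists together, 17 of 73 genes (23.3%) had a peak, close to the 22.7% of all genes. The shares of the lists were not tested against each other.

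**Figure D5:**
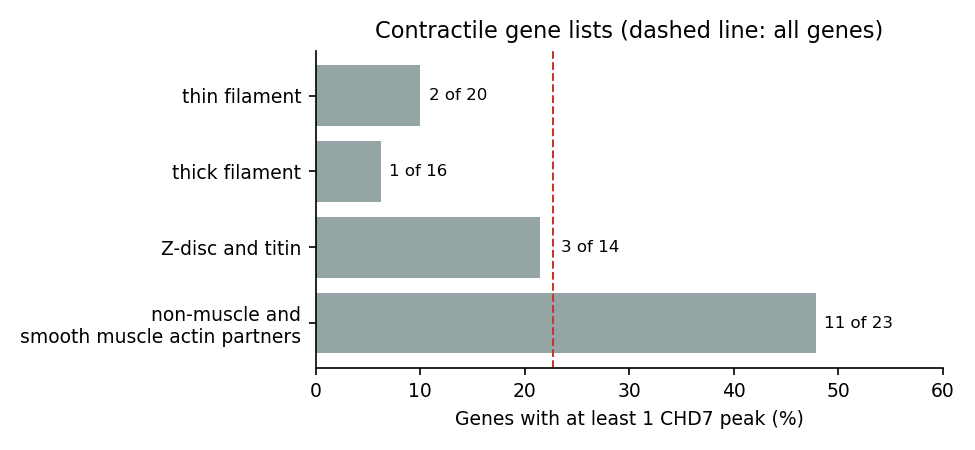
Share of genes with at least 1 CHD7 peak in their regulatory domain (%, bars), with the number of genes beside each bar, for 4 lists of contractile and actin-binding genes other than the tropomyosins. The dashed line is the share over all protein-coding genes, 22.7%, which the thin and thick filament lists lie below and the actin partners, with 11 of 23, above.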

How the data were processed

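CUT&RUN was performed in CP cells with anti-CHD7 or IgG, and input libraries were sequenced as well, with 3 replicates each (9 libraries). The authors trimmed reads with fastp (v0.20.1), aligned them to mm10 with bwa (v0.7.17.4), removed duplicates by UMI, called peaks with MACS2 (v2.1.2) in each sample against IgG and kept those overlapping in at least 2 replicates. The deposited values are start and end positions in bp, with no score. The calling threshold is not given in the sources used here. Depth and replicate error are thus unknown, and precision is limited by how many peaks there are.

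Starts were read as counted from 0, and peaks numbered in list order. Positions were used with GENCODE M21 and the RefSeq copy of GRCm38.p6. The TSS of each of 21911 protein-coding genes was that of 1 transcript, protein-coding first, then by APPRIS level and spliced length. The basal plus extension rule is the default of GREAT, which the authors used, without its curated domains. Repeats are the lower case letters of the genome file. The members, gene lists, motifs and alternatives were chosen with earlier results of these data known. Named genes are the members, genes sharing their peaks, genes with as many peaks as Tpm1, and list genes with 3 or more peaks or, failing those, the 2 with most, and others were chosen after their values were seen. Functions were tested on simulated data. Scripts ran in Python 3.11.15, with pysam 0.24.0 for sequences, scipy 1.17.1, pandas 2.3.3 and numpy 2.4.6. The IgG and input libraries and protein sequences were not analysed here.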

Additional observations from a re-analysis of the deposited data

How the results depend on the processing

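Peaks per gene were recounted under 12 alternatives. With the basal domain alone, Tpm1 and Tpm3 had 0 peaks, as the midpoints inside both genes lie past its 1 kb limit. In that setting 3.16% of all genes had a peak, and 1 gene of the 4 contractile lists had one against 17. Tpm1 there shared the last rank, 694, with every other gene without a peak. With the extension limited to 100 kb Tpm1 had 4 peaks and rank 3 (17% of genes with a peak). In a window of 50 kb to either side Tpm1 had 3 peaks, Tpm2 1 and Tpm3 2, and Tpm1 ranked 10. In the gene body and 5 kb upstream Tpm1 had 2 peaks and rank 60, with 10.3% of genes and 11 list genes. By the single nearest TSS Tpm1 kept 5 peaks, with rank 3, 14.2% of genes and 8 list genes. With the 5′-most start as TSS the rank was 2. Merging peaks under 1 or 5 kb apart left Tpm1 with 6 peaks in both cases, with rank 5 and 3. With peaks wider than the median Tpm1 had 6 peaks and rank 1, and 13% of genes had a peak. Tpm4 had 0 peaks in every alternative. The number of tropomyosin peaks with a match, summed over the 12 motifs, rose from 10 in 200 bp to 16 in 300 bp and 44 in the whole peak, which follows from the longer windows. Genes with a peak over an inner start and none at the TSS numbered 28 to 44 under 4 alternatives chosen after seeing the data.

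No paired analysis was possible because the list pools the replicates, and for the same reason leaving out a replicate was not run.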
